A study of Mus musculus with 4 samples.

Results

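The genes described here handle arginine and polyamines in the macrophage. The set holds 10 genes out of 16403 gene IDs listed in at least 1 of 4 RNA-seq libraries. These were chosen by name for their place in this metabolism, with earlier results of these data known. They are the arginases Arg1 and Arg2, the cationic amino acid transporters Slc7a2 and Slc7a1, the polyamine synthesis enzymes Odc1 and Srm, the antizyme inhibitor Azin1, the polyamine acetyltransferase Sat1, the ornithine aminotransferase Oat and the argininosuccinate synthetase Ass1. All 10 genes were listed in all 4 libraries. The libraries came from peritoneal macrophages of C57BL/6 mice, elicited with 4% thioglycolate, allowed to adhere for 4 h and starved in 0.5% serum. One genotype was wild-type, littermates according to the methods of the study. The other, TIF1a-KO, carried floxed Trim24 (the gene of TIF1a) with LysM-Cre, which is active in myeloid cells as a whole and not only in macrophages. Whether the wild-type mice carried LysM-Cre is not given in the sources used here. Each genotype was left without treatment (nontreat) or stimulated with IL-4 at 20 ng/mL for 6 h, and the age of the mice was 6 to 8 weeks. Each of these 4 groups held 1 library, the number of mice behind a library is not given in the sources used here, and no difference below has a replicate check.

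Arginase splits arginine into urea and ornithine, so it competes with the nitric oxide synthases for the same substrate. Ornithine decarboxylase turns ornithine into putrescine, the first polyamine, which spermidine and spermine synthases extend, while ornithine aminotransferase sends ornithine toward proline and glutamate. Arg1 is a standard marker of macrophages activated by IL-4 through the transcription factor Stat6, and Slc7a2 brings arginine into such cells.

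The RefSeq promoter table of GRCm38.p6, which gives 250 bases before and 50 bases after a start site, held 6 windows for 5 of the 10 genes (Slc7a1, Odc1, Oat, Sat1 and Ass1). Arg1, Arg2, Slc7a2, Azin1 and Srm had no entry. Of the 6 windows, 4 are shown because the values of their genes moved in different ways below. For Slc7a1 only the downstream window is shown, which held a match to a motif below, while the upstream window held none. Slc7a1 and Sat1 were higher with IL-4, Ass1 was lower in TIF1a-KO cells, and Odc1 was called in no comparison. Capitals mark any match to TTCNNNGAA, the general STAT motif, to TTCNNNNGAA, the spacing that Stat6 prefers, or to the E-box CACGTG. Each motif reads the same on both strands, and no match overlapped another here.
Slc7a1 promoter, chr5:148392766-148393065, minus strand: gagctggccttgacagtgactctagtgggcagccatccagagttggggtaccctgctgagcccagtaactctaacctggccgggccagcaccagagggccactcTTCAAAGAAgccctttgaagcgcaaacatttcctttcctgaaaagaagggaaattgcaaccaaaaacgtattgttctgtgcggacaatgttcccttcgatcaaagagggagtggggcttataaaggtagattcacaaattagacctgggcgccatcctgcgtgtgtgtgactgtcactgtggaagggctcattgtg
Sat1 promoter, chrX:155216400-155216699, minus strand: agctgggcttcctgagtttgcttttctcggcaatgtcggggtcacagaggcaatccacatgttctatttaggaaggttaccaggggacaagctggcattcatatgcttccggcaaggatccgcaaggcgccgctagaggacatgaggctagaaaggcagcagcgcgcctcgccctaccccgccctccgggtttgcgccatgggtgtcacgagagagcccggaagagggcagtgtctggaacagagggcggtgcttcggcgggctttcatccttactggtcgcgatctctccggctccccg
Ass1 promoter, chr2:31470020-31470319, plus strand: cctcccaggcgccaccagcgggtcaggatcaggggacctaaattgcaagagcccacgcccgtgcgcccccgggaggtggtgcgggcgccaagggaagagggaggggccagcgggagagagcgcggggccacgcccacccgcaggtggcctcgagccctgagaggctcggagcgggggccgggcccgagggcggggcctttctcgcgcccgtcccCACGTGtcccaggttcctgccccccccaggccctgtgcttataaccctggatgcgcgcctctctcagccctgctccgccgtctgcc
Odc1 promoter, chr12:17544623-17544922, plus strand: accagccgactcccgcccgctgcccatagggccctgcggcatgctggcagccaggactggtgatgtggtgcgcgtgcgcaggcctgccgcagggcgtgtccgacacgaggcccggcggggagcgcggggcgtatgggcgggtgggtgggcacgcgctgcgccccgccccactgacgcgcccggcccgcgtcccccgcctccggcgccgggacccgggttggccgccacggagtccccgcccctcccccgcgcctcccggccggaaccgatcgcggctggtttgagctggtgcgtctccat
The window at the downstream of the 2 Slc7a1 starts held 1 match to TTCNNNGAA, TTCAAAGAA, whose first base lay at -146 from the start. The Ass1 window held 1 CACGTG, with its first base at -36. The windows of Sat1, Odc1, Oat and the upstream Slc7a1 start held no match to these 3 motifs, and no window held TTCNNNNGAA. Over all 32851 promoter windows, 8.30% held TTCNNNGAA, 6.95% held TTCNNNNGAA and 7.15% held CACGTG. The 6 windows had 51.7% to 78.0% G or C, with the Odc1 window highest, against a median of 52.7% over all windows.

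Library totals were close, from 11026033 to 11250099 expected reads, and the floor of 3 reads stood at 0.267 to 0.272 CPM (reads scaled by library total). Intervals and standard errors below cover counting error only. Trim24 had 175 and 103 reads in the wild-type nontreat and IL-4 libraries and 4 and 10 reads in the TIF1a-KO libraries, so the targeted gene followed the labels. All 7 macrophage markers were detected in every library. Their summed level was 14840 and 14737 FPKM (fragments scaled by transcript length and library total) in the wild-type libraries and 8894 and 8287 FPKM in the TIF1a-KO libraries. Lyz2, whose locus drives LysM-Cre, made up most of it, at 11289 and 10811 against 5193 and 4761 FPKM. Nearly all of the genotype difference in the sum lay in Lyz2, and the other macrophage markers together were similar in the 4 libraries. The summed level ran from 4.23 to 6.52 FPKM for B cell markers, from 1.14 to 2.07 for T cells, from 6.96 to 11.5 for neutrophils, from 1.44 to 2.47 for eosinophils and from 3.60 to 8.98 for mast cells. Of the neutrophil markers, 4 of 6 were at 0 in each library. The parts of these markers in the results were not tested, and in bulk RNA fewer cells of a type and less RNA per cell cannot be told apart.

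**Figure D1:**
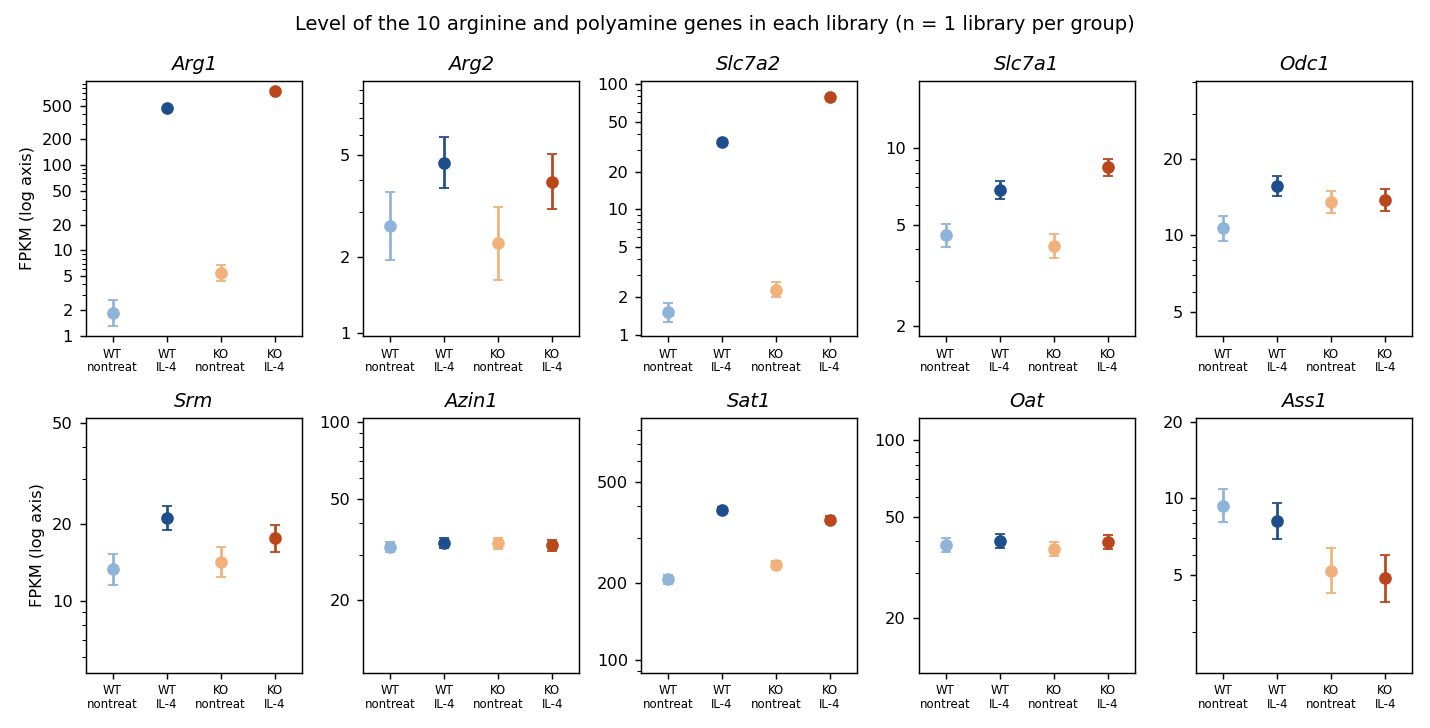
Level of each of the 10 genes in FPKM, on a log axis of its own that spans at least 10-fold, in the 4 libraries. Points are single libraries and bars are 95% counting intervals. Arg1 and Slc7a2 stood far above their nontreat levels in both IL-4 libraries, Azin1 and Oat were level across the 4 libraries before any correction for length, and Ass1 was lower in both TIF1a-KO libraries.

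With IL-4, the arginase Arg1 and the arginine transporter Slc7a2 rose by far the most of the 10 genes in both genotypes. The other 8 differed by less than 2-fold, except Slc7a1 in TIF1a-KO cells. In the wild-type pair, 5 of the 10 genes were called higher with IL-4 and 0 lower. In the TIF1a-KO pair, 5 were called higher and 0 lower as well. Here a call needed both Fisher's exact test on the reads (adjusted p under 0.05), which compares the 2 libraries and not the conditions, and more than a 1.5-fold difference in FPKM. Over all genes tested, 4.91% were called higher and 7.89% lower in the wild-type pair, and 5.29% higher and 4.04% lower in the TIF1a-KO pair. As a median over the 10 genes, the log2 ratio was 0.62 and 0.45, beside medians of -0.03 and 0.00 over all genes tested. With a biological coefficient of variation of 0.2 assumed in edgeR's exact test, the called members were 2 in each pair, Arg1 and Slc7a2, against 1.65% and 1.73% of all genes.

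The 2 arginases differ in where they work, Arg1 in the cytosol and Arg2 in mitochondria. Arg1 (gene ID 11846, GRCm38 chr10:24915207-24927470, protein coding) was at 1.84 FPKM in wild-type nontreat, 463 in wild-type IL-4, 5.40 in TIF1a-KO nontreat and 733 in TIF1a-KO IL-4 cells. The 4 levels were ordered TIF1a-KO IL-4, wild-type IL-4, TIF1a-KO nontreat and wild-type nontreat, and each neighbour in that order differed by more than its counting interval. The nontreat levels rested on 30 and 88 reads, the IL-4 levels on 7711 and 11950. Arg1 rose by 7.90 ± 0.26 on the log2 scale in the wild-type pair (SE from counting), a fold of 239 with an interval of 167 to 341. In the TIF1a-KO pair it rose by 7.06 ± 0.15, a fold of 133 with an interval of 108 to 164. Among the 7464 genes that averaged 5 FPKM or more, its log2 ratio ranked 1 in the wild-type pair and 2 in the TIF1a-KO pair. By FPKM it went from rank 9582 to rank 159 in wild-type and from rank 7264 to rank 76 in TIF1a-KO cells.

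Arg2 (gene ID 11847, chr12:79130788-79156301) stayed low, at 2.64, 4.68, 2.26 and 3.94 FPKM in the same order of libraries, from 35 to 74 reads. The IL-4 libraries were both above the nontreat libraries, and the 2 IL-4 levels did not differ beyond counting error, nor did the 2 nontreat levels. Its log2 ratio with IL-4 was 0.80 ± 0.28 in wild-type (adjusted p = 0.013, Fisher's exact test) and 0.78 ± 0.30 in TIF1a-KO cells (adjusted p = 0.034), and it was called in both pairs. Arg1 made up 41.1% of the summed FPKM of the 2 arginases in wild-type nontreat and 70.5% in TIF1a-KO nontreat cells, and 99.0% and 99.5% with IL-4.

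Of the cationic amino acid transporters, which carry arginine, lysine and ornithine across the plasma membrane, Slc7a2 is the inducible one in macrophages and Slc7a1 the widely expressed one. Slc7a2 (gene ID 11988, chr8:40862341-40922070) stood at 1.52 FPKM in wild-type nontreat, 34.5 in wild-type IL-4, 2.30 in TIF1a-KO nontreat and 79.05 in TIF1a-KO IL-4 cells. It had the same order of libraries as Arg1, again with every neighbour apart by more than counting error. It rose by 4.42 ± 0.13 on the log2 scale in wild-type, a fold of 21.4 with an interval of 17.9 to 25.4. In TIF1a-KO cells it rose by 5.04 ± 0.10, a fold of 33.0 with an interval of 28.6 to 38.0. Slc7a1 (gene ID 11987, chr5:148327410-148399904) was at 4.54, 6.85, 4.12 and 8.41 FPKM, higher in both IL-4 libraries. It was called in TIF1a-KO cells, with a log2 ratio of 1.01 ± 0.10 (adjusted p = 1.1e-26). In wild-type its log2 ratio of 0.58 ± 0.10 (adjusted p = 6.7e-09) was a fold of 1.498, just under the 1.5 required, and it was called on the CPM and TMM scales. Slc7a2 made up 25.1% and 35.8% of the summed FPKM of both transporters in the nontreat cells and 83.4% and 90.4% in the IL-4 cells. The expected counts of Slc7a1, Slc7a2 and Odc1 were not whole in any library, so some of their reads also matched other genes and the values depend on how these were divided.

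**Figure D2:**
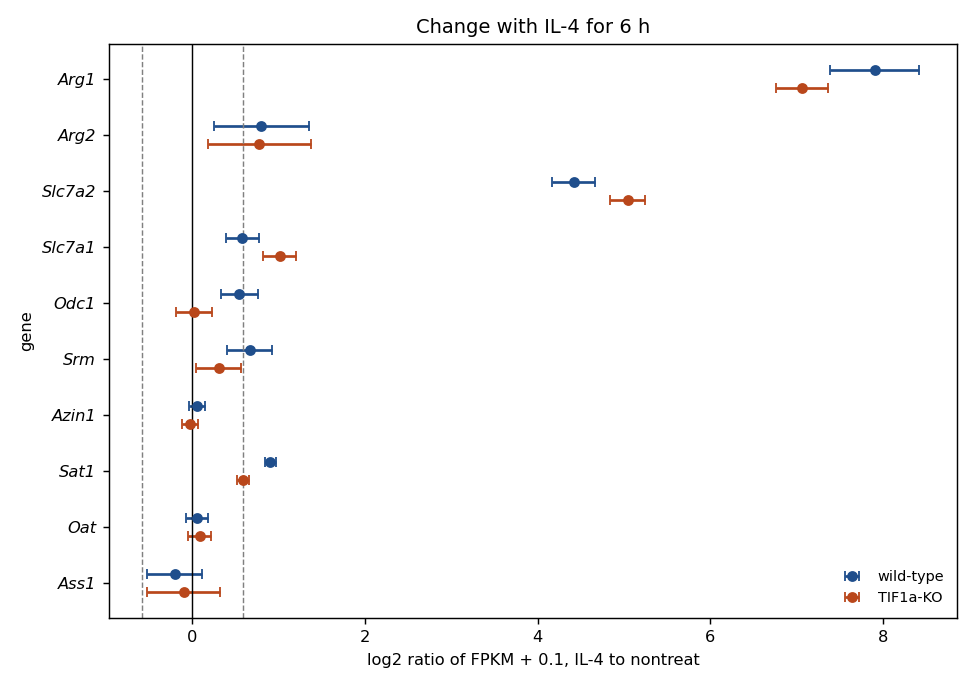
Log2 ratio of IL-4 to nontreat for the 10 genes in wild-type (blue) and TIF1a-KO (orange) cells, on the log2(FPKM + 0.1) scale. Bars are 95% counting intervals and dashed lines mark 1.5-fold. Arg1 (7.90 and 7.06) and Slc7a2 (4.42 and 5.04) lie far from the other 8 genes, whose ratios run from -0.20 to 1.01.

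In polyamine synthesis the changes were small. Odc1 (gene ID 18263, chr12:17544808-17551502), ornithine decarboxylase, makes the first committed step. It was at 10.6 FPKM in wild-type nontreat, 15.6 in wild-type IL-4, 13.5 in TIF1a-KO nontreat and 13.8 in TIF1a-KO IL-4 cells. The wild-type nontreat library was the low one, and the 2 TIF1a-KO libraries did not differ beyond counting error. Its log2 ratio with IL-4 was 0.55 ± 0.11 in wild-type (adjusted p = 1.7e-06, a fold of 1.46, called only on the TMM scale among the scales tried) and 0.02 ± 0.10 in TIF1a-KO cells (adjusted p = 0.98). Srm (gene ID 20810, chr4:148591513-148594619), spermidine synthase, stood at 13.3, 21.1, 14.2 and 17.6 FPKM, with both IL-4 libraries above both nontreat libraries. Its log2 ratio was 0.66 ± 0.13 in wild-type (adjusted p = 2e-06, called) and 0.31 ± 0.14 in TIF1a-KO cells (adjusted p = 0.082, not called). Azin1 (gene ID 54375, chr15:38487430-38519294) binds antizyme and so frees ornithine decarboxylase from degradation. It was at 32.2, 33.5, 33.3 and 32.7 FPKM, the narrowest range of the set, and no neighbouring levels differed beyond counting error. Its IL-4 log2 ratio was 0.05, with an interval of -0.04 to 0.15, in wild-type, and -0.03, with an interval of -0.12 to 0.07, in TIF1a-KO cells.

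Sat1 (gene ID 20229, chrX:155213126-155216449) encodes spermidine/spermine acetyltransferase, which marks polyamines for export or oxidation. It had the highest FPKM of the set in both nontreat libraries, at 207 in wild-type nontreat, 387 in wild-type IL-4, 236 in TIF1a-KO nontreat and 355 in TIF1a-KO IL-4 cells. Both IL-4 libraries were above both nontreat libraries, and all neighbouring levels differed beyond counting error. It rose by 0.91 ± 0.03 on the log2 scale in wild-type and by 0.59 ± 0.03 in TIF1a-KO cells, the latter a fold of 1.502, just over the threshold. Oat (gene ID 18242, chr7:132557475-132576398) was level, at 38.7, 40.2, 37.3 and 39.7 FPKM. Its IL-4 log2 ratio was 0.05 (interval -0.08 to 0.18) in wild-type and 0.09 (interval -0.04 to 0.22) in TIF1a-KO cells. Ass1 (gene ID 11898, chr2:31470270-31520670), which with argininosuccinate lyase makes arginine again from citrulline, was at 9.38, 8.15, 5.20 and 4.86 FPKM. It did not differ beyond counting error between nontreat and IL-4 in either genotype, with log2 ratios of -0.20 ± 0.16 and -0.10 ± 0.21.

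Summed over the 10 genes the level was 321 FPKM in wild-type nontreat, 1015 in wild-type IL-4, 354 in TIF1a-KO nontreat and 1288 in TIF1a-KO IL-4 cells. This was 0.0654%, 0.2003%, 0.0734% and 0.271% of all FPKM. Arg1 supplied 0.572% and 1.53% of the sum in the nontreat cells and 45.6% and 56.9% in the IL-4 cells.

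The TIF1a-KO libraries held more Arg1 and Slc7a2 and less Ass1 than the wild-type libraries. Without IL-4, 1 of the 10 genes was called higher in TIF1a-KO cells (Arg1) and 1 lower (Ass1), against 0.839% and 0.742% of all genes tested. With IL-4, 2 were called higher (Slc7a2 and Arg1) and 1 lower (Ass1), against 3.04% and 0.764%. As a median over the 10 genes, the genotype ratio was 0.07 without and -0.08 with IL-4, beside -0.004 and 0.02 over all genes tested. With an assumed coefficient of variation of 0.2 the called members were 0 in both pairs by edgeR's exact test, against 0.0960% and 0.135% of all genes. These 2 genotype pairs share no library, but each shares its libraries with the IL-4 pairs above.

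Arg1 was higher in TIF1a-KO cells by 1.503 ± 0.30 on the log2 scale without IL-4, a fold of 2.84 with an interval of 1.88 to 4.28 (adjusted p = 3.3e-06, Fisher's exact test). With IL-4 it was higher by 0.66 ± 0.02, a fold of 1.58 with an interval of 1.54 to 1.63 (adjusted p = 2.4e-218). Slc7a2 was higher by 1.19 ± 0.03 with IL-4, a fold of 2.29. Without IL-4 its log2 ratio was 0.57 ± 0.16 (adjusted p = 0.0047), a fold of 1.48 that was called only on the CPM and TMM scales or with a pseudocount of 0.01. Ass1 was lower in TIF1a-KO cells in both states, by a log2 ratio of -0.84 ± 0.19 without IL-4 (adjusted p = 0.00017) and of -0.73 ± 0.19 with it (adjusted p = 0.0011). Among the same 7464 genes, Ass1 ranked 7442 and 7446 from the highest genotype ratio, close to the lowest end of both. Of the genes not called, Sat1 had log2 ratios of 0.19 ± 0.04 in nontreat cells (adjusted p = 3.8e-05) and -0.13 ± 0.03 in IL-4 cells (adjusted p = 8.4e-05), and Odc1 had 0.34 ± 0.11 (adjusted p = 0.03) and -0.18 ± 0.10 (adjusted p = 0.23). Slc7a1 had -0.14 ± 0.11 (adjusted p = 0.68) and 0.29 ± 0.08 (adjusted p = 0.0019). The genotype ratios of Arg2, Azin1, Oat and Srm ran from -0.26 to 0.09 and none had an adjusted p under 0.05.

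Ratios between these libraries also followed transcript length. Across 10437 to 10442 genes of at least 1 FPKM, Spearman's rho between length and log2 ratio was -0.37 for IL-4 in wild-type, -0.11 for IL-4 in TIF1a-KO cells, 0.13 for genotype without IL-4 and 0.52 for genotype with IL-4 (across genes, which are not independent replicates). Slc7a2 and Slc7a1 are the longest transcripts of the set, at 7720 and 7118 bases or more. At the length of Slc7a2 the trend was 0.36 in the genotype pair with IL-4 and -0.41 in the wild-type IL-4 pair. After removal of the trend the genotype ratio of Slc7a2 with IL-4 was 0.84, still called, that of Arg1 was 0.77 and that of Ass1 -0.64, also called. The ratio of Slc7a1 was then -0.03, below 0. In the IL-4 pairs, removal of the trend ended the calls of Srm in wild-type (0.54) and of Sat1 (0.55) and Arg2 (0.74, adjusted p = 0.056) in TIF1a-KO cells, and Slc7a1 in wild-type was then called (0.96). Azin1, level before, then had ratios of 0.26 for IL-4 in wild-type (adjusted p = 8.3e-07) and -0.21 for genotype with IL-4 (adjusted p = 0.00018), under the fold required. Sat1 then had a genotype ratio with IL-4 of 0.02 (adjusted p = 0.89). The part of length in these results was otherwise not tested.

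**Figure D3:**
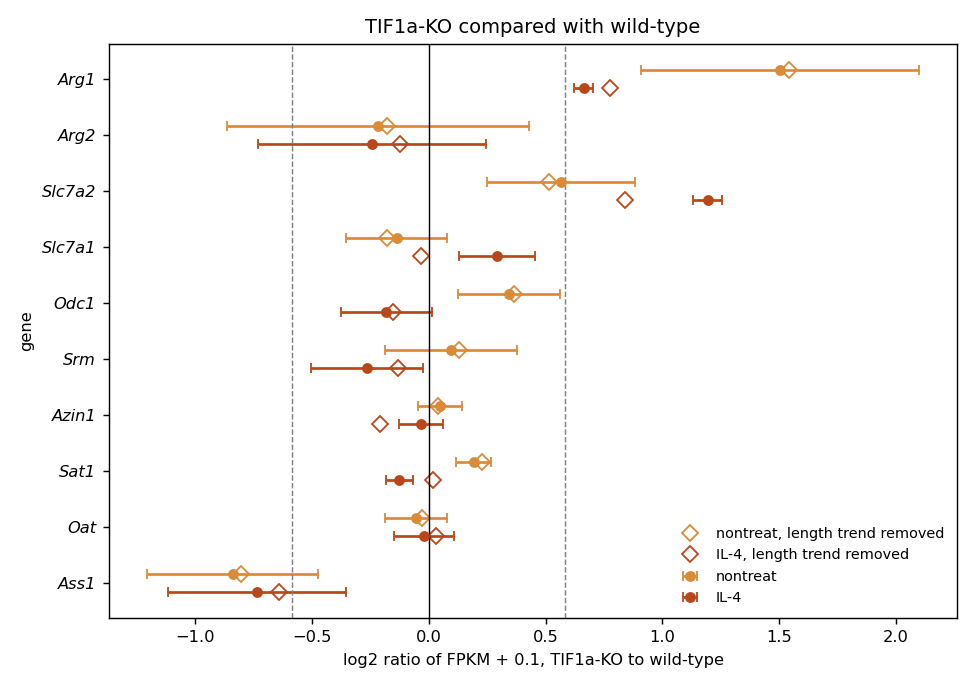
Log2 ratio of TIF1a-KO to wild-type for the 10 genes, nontreat (light orange) and with IL-4 (dark orange), on the log2(FPKM + 0.1) scale. Filled points carry 95% counting intervals, open diamonds are the same ratios after removal of the length trend, and dashed lines mark 1.5-fold. Arg1 lies to the right and Ass1 to the left in both states, and Slc7a2 with IL-4 moves from 1.19 to 0.84 once the trend is removed.

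Markers of mesothelial cells and fibroblasts moved in part with Ass1. Their 9 genes summed to 46.7 FPKM in wild-type nontreat, 40.6 in wild-type IL-4, 23.4 in TIF1a-KO nontreat and 44.1 in TIF1a-KO IL-4 cells. Without IL-4, 8 of 9 were lower in TIF1a-KO cells. Of the 9, 5 were called lower and 0 higher, against 0.742% and 0.839% of all genes tested. With IL-4, 5 of 9 were lower, of which 2 were called (Wt1 and Dcn), while Col1a1 and Msln were called higher. Of all genes tested with IL-4, 0.764% were called lower and 3.04% higher in TIF1a-KO cells. Wt1, a mesothelial transcription factor, was at 1.98, 1.86, 0.90 and 0.67 FPKM, and Dcn, a fibroblast proteoglycan, at 14.4, 13.6, 7.93 and 8.94 FPKM, so that both had the same high and low libraries as Ass1. Col1a1, the main fibrillar collagen chain, was at 10.9, 8.46, 4.81 and 15.4 FPKM. The part of these cells in the level of Ass1 was not tested.

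**Figure D4:**
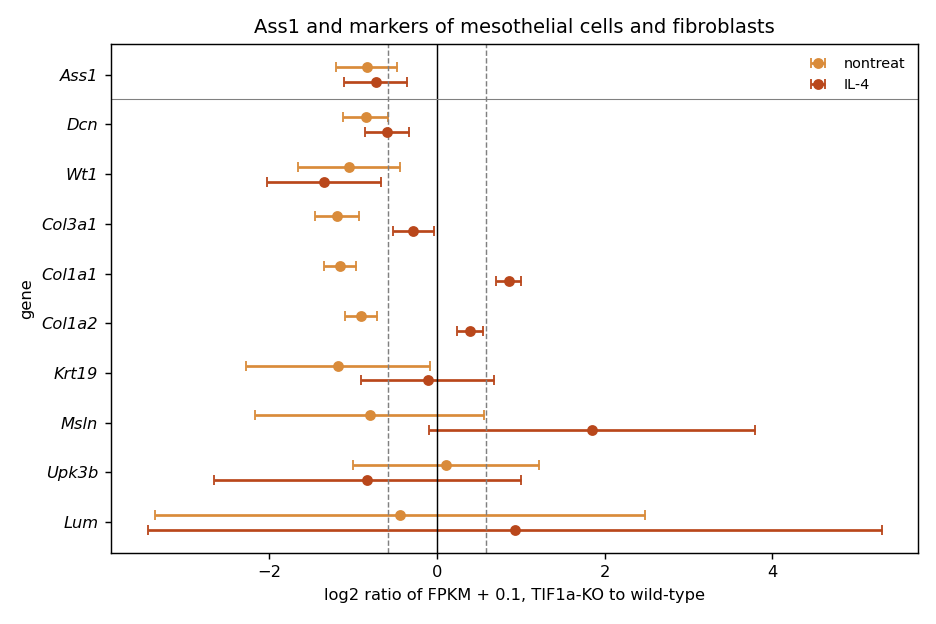
Log2 ratio of TIF1a-KO to wild-type for Ass1 and for 9 markers of mesothelial cells and fibroblasts, nontreat (light orange) and with IL-4 (dark orange). Bars are 95% counting intervals and dashed lines mark 1.5-fold. Dcn and Wt1 lie on the same side as Ass1 in both states, while Col1a1 changes side from -1.16 to 0.85.

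Because each genotype had its own IL-4 pair, the difference of the 2 responses could be taken over the 4 libraries. Of the 10 genes, 1 was called higher in TIF1a-KO cells (Slc7a2) and 1 lower (Arg1), against 2.44% and 0.446% of the 11664 genes that averaged 10 reads or more. The log2 response of Slc7a2 was larger in TIF1a-KO than in wild-type cells by 0.59, with an interval of 0.27 to 0.92 (adjusted p = 0.0048, Wald test on counts). That of Arg1 was smaller, with a difference of -0.88 and an interval of -1.47 to -0.28 (adjusted p = 0.034), although its level was higher in TIF1a-KO cells in both states. After removal of the length trend the differences were 0.29 (adjusted p = 0.39) and -0.80 (adjusted p = 0.11), and neither was called. On the TMM scale that of Slc7a2 was 0.56, under the fold required. Odc1 had a difference of -0.53 (interval -0.82 to -0.24, adjusted p = 0.0055), under the fold required, and -0.52 (adjusted p = 0.015) without the trend. The differences of Sat1 (-0.32, adjusted p = 2.1e-09) and Slc7a1 (0.44, adjusted p = 0.015) were also under that fold, and without the trend they were -0.21 (adjusted p = 0.0008) and 0.16 (adjusted p = 0.65). For Arg2, Azin1, Oat, Srm and Ass1 the adjusted p ran from 0.23 to 0.98, with intervals from -0.83 to 0.79 at the widest, for Arg2. Without the trend Azin1 had a difference of -0.26 (adjusted p = 0.0058), under the fold required.

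A fit of all 4 libraries at once, with genotype and treatment as additive terms and 1 residual degree of freedom, takes each pair as a repeat of the other. Its residual is the difference of responses, which was called above for Arg1 and Slc7a2 before removal of the length trend. By edgeR's quasi-likelihood test, 6 of the 10 genes were higher with IL-4 and 0 lower, against 12.0% and 13.3% of 11791 genes. They were Arg1 (log2 fold change 7.41), Slc7a2 (4.84), Slc7a1 (0.83), Arg2 (0.82), Sat1 (0.76) and Srm (0.50), with adjusted p-values up to 0.019. Odc1 had 0.30 (adjusted p = 0.12). This fit had no fold requirement, and the fold of Srm was 1.42. At an unadjusted p under 0.05 there were 7, all higher, against 17.6% of genes higher and 18.9% lower. DESeq2 called 4 higher and 0 lower, against 5.17% and 5.08%. For genotype, 2 genes were higher, Slc7a2 (1.01, adjusted p = 0.00047) and Arg1 (0.79, adjusted p = 0.0079), and 1 was lower, Ass1 (-0.80, adjusted p = 0.015), against 1.29% and 0.373% of genes. DESeq2 called 1 higher and 0 lower, against 0.491% and 0.0689%, and edgeR without a filter on low counts called 0, against 0.110% higher and 0.0367% lower. In the filtered fit 3 members had an unadjusted p under 0.05, against 14.2% of genes.

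Beyond the 10 genes, a list of 50 further genes of the same metabolism was drawn up, of which 45 were listed in some library and 34 had a mean of at least 0.5 FPKM. In the wild-type pair 5 of the 34 were called higher with IL-4 and 2 lower, against 4.91% and 7.89% of all genes tested. In the TIF1a-KO pair 4 were called higher and 3 lower, against 5.29% and 4.04%. The median log2 ratios over the 34 genes were 0.10 and 0.05, near those of all genes. For genotype, 0 of 34 were called in either direction in both pairs, with Fisher's exact test. Without IL-4, 0.839% of all genes tested were called higher and 0.742% lower, and the shares with IL-4 were 3.04% and 0.764%. At an unadjusted p under 0.05, 0 of the 34 were higher and 7 lower without IL-4, against 8.19% and 8.24% of all genes. There were 3 higher and 9 lower with IL-4, against 16.8% and 11.8%. In the additive fit edgeR called 0 of the 34 for genotype, against 1.29% of genes higher and 0.373% lower. DESeq2 also called 0, against 0.491% and 0.0689%. With upper-quartile scaling edgeR called 0 higher and 2 lower, against 2.81% and 1.38% of genes, and with the length trend as an offset 0 higher and 3 lower, against 3.38% and 1.91%. These were Oaz1 and Ahcy (-0.37 and -0.41) in the first setting and Oaz1, Ahcy and Slc7a6 (-0.24, -0.35 and -0.42) in the second, Ahcy and Slc7a6 being named after their values were seen. Over the 34 list genes, the median genotype ratios were -0.07 without and -0.10 with IL-4.

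In both genotypes, 3 list genes were called higher with IL-4, and they act in creatine synthesis, in proline and ornithine synthesis and in the control of antizyme. The share of all genes called alike in both genotypes was not taken, so the counts called in both have no background here. Gatm, which moves the amidino group of arginine to glycine in the first step of creatine synthesis, was at 10.5 and 26.8 FPKM in wild-type nontreat and IL-4 and at 9.02 and 28.1 FPKM in TIF1a-KO cells. Its log2 ratios were 1.35 ± 0.10 and 1.63 ± 0.11. Aldh18a1, which makes the precursor of proline and ornithine from glutamate, was at 4.72 and 8.86 and at 5.04 and 9.62 FPKM, with ratios of 0.89 and 0.92. Azin2, an antizyme inhibitor like Azin1, was at 0.30 and 1.20 and at 0.30 and 1.18 FPKM, from 7 reads to 28 and 27. The 2 genes called lower in both were Smox, spermine oxidase, and Atp13a2, a lysosomal polyamine exporter. Smox was at 7.12 and 3.85 and at 7.72 and 4.31 FPKM, with ratios of -0.87 and -0.83. Atp13a2 was at 50.9 and 29.8 and at 52.7 and 33.8 FPKM, with ratios of -0.77 and -0.64. A further 4 genes, named after their values were seen, were called in 1 genotype. Eif5a, the protein that carries the spermidine-derived hypusine, had ratios of 0.71 and 0.42 and Dhps, the enzyme of the first hypusine step, 0.62 and 0.49, both called in wild-type. Both of these calls ended once the length trend was removed (0.58 and 0.50). Gamt, the second enzyme of creatine synthesis, had 0.46 and 0.78 and Slc18b1, a vesicular polyamine transporter, -0.71 and -0.83, both called in TIF1a-KO cells. The difference between the 2 responses is not given here for these 4 genes.

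**Figure D5:**
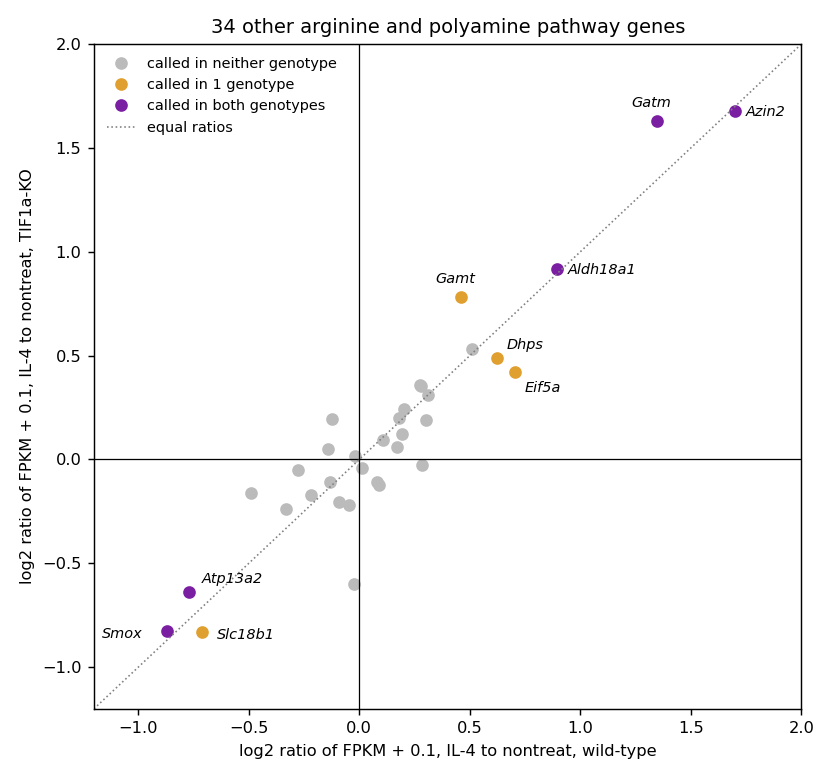
Log2 ratio of IL-4 to nontreat in wild-type (horizontal axis) and TIF1a-KO cells (vertical axis) for the 34 further pathway genes of at least 0.5 FPKM, on the log2(FPKM + 0.1) scale. Purple points were called in both genotypes, yellow points in 1 and grey points in neither. Gatm, Azin2 and Aldh18a1 lie at the upper right, and Smox and Atp13a2 at the lower left.

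Other steps were read out whatever their values. Nos2, the inducible nitric oxide synthase that competes for arginine, had 1, 2, 2 and 1 reads in wild-type nontreat, wild-type IL-4, TIF1a-KO nontreat and TIF1a-KO IL-4 cells, under the floor of 3 reads, so it could not be compared. Slc3a2, the heavy chain of several amino acid exchangers, was at 140, 199, 131 and 189 FPKM, with IL-4 ratios of 0.51 and 0.53, under the fold required. Oaz1, antizyme, which targets ornithine decarboxylase for degradation, was at 203, 200, 159 and 160 FPKM. Its genotype ratios were -0.36 ± 0.04 (adjusted p = 8.9e-14) and -0.32 ± 0.04 (adjusted p = 6.9e-12), also under the fold required. Without the length trend the one with IL-4 was -0.17 (adjusted p = 0.002). Its IL-4 ratios were -0.02 in wild-type, or -0.17 (adjusted p = 0.00027) without the trend, and 0.01 in TIF1a-KO cells. Amd1, which supplies the aminopropyl donor, was at 24.0, 29.1, 22.1 and 28.3 FPKM and shares reads with its near copy Amd2, so both are uncertain. Sms, spermine synthase, was at 14.6, 12.5, 12.6 and 11.2 FPKM. Pycr1, a step of proline synthesis, had at most 8.51 reads in a library.

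The genes whose pattern over the 4 libraries was most like that of Arg1 were Cish, Chil3, Tmem26, Pdcd1lg2 and Sprr2a3. Likeness was the Euclidean distance of log2(FPKM + 0.1) values centred on their mean, among 7463 genes of at least 5 FPKM, and the distances were 0.61, 1.29, 1.64, 2.05 and 2.21. Cish, a suppressor of cytokine signalling, was listed at 0 in wild-type nontreat and at 0.15 FPKM in TIF1a-KO nontreat cells. It was at 19.4 FPKM in wild-type IL-4 and 21.3 FPKM in TIF1a-KO IL-4 cells. Both nontreat values of Cish were close to the added 0.1, so its distance to Arg1 depends on that amount. Chil3, a chitinase-like marker of alternative activation, was at 7.17, 555, 11.1 and 983 FPKM. Its genotype ratios were 0.62 without and 0.82 with IL-4, beside 1.503 and 0.66 for Arg1. Tmem26 was at 1.36, 95.8, 1.56 and 127 FPKM and Pdcd1lg2, the PD-1 ligand PD-L2, at 0.37, 22.7, 0.32 and 27.5 FPKM. The last gene, Sprr2a3, belongs to a family of near copies and its values, 0.11, 13.1, 0.12 and 9.29 FPKM, are uncertain. All 5 were low without IL-4 and high with it in both genotypes, which follows from their choice by likeness to Arg1.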

How the data were processed

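The authors mapped reads from total RNA to GRCm38 (mm10) with Bowtie and quantified genes with RSEM, versions not given in the sources used here. Each deposited table held 1 library with expected counts, of which 22.2% to 22.8% were not whole, and FPKM. Strand use in counting is not given. Genes not listed were set to 0. Of 16403 gene IDs, 16365 matched a RefSeq symbol. The 10 genes, the lists and the tests were chosen with earlier results of these data known.

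Expected counts were rounded. Each pair of libraries was compared over all genes with a read by two-sided Fisher's exact test with Benjamini-Hochberg adjustment. Calls required an adjusted p below 0.05 with more than a 1.5-fold ratio of FPKM + 0.1 (of scaled counts for the difference of responses), and in the additive fit the adjusted p alone. The added 0.1 shrinks ratios of weakly expressed genes. Standard errors came from counts plus 0.5, and intervals are 95% (Wilson for levels). The difference of responses used a Wald test, adjusted over its genes. The additive fit used edgeR 4.0.16 (TMM, filterByExpr, quasi-likelihood) in R 4.3.3, with DESeq2 1.42.0 and limma 3.58.1 as alternatives. The length trend was a lowess curve (fraction 0.3) over log2 transcript length. Alternatives were other pseudocounts, a filter of 1 FPKM, CPM, TMM and upper-quartile scaling, a fold of 2, edgeR's exact test with an assumed coefficient of variation of 0.2 or 0.4 and no count filter. Scripts were tested on simulated data. Named genes were the 10 members, Trim24, list genes called alike in both pairs, Nos2, Oaz1, Slc3a2, Sms, Smox, Amd1, Pycr1 and the 5 nearest to Arg1. With 1 library per group, no p-value measures variation between mice or cultures.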

Additional observations from a re-analysis of the deposited data

Results flagged for a closer look

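Of the 10 genes, 2 had a response to IL-4 that was called different between the genotypes by the test of the difference itself. Such a call needed an adjusted p under 0.05 and more than 1.5-fold. Slc7a2 was called higher in TIF1a-KO cells and Arg1 lower, against 2.44% and 0.446% of the genes tested. The log2 response of Arg1 in TIF1a-KO minus wild-type cells was -0.88 (adjusted p = 0.034, Wald test on counts), and it rested on the 30 reads of Arg1 in the wild-type nontreat library. The same difference for Slc7a2 was 0.59 (adjusted p = 0.0048). Neither was called once the length trend was removed, as given above.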

How the results depend on the processing

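No paired analysis was possible because each group holds 1 library and the labels carry no replicate numbers, and no library could be left out for the same reason. Of 87 alternative counts of called genes, 63 stayed within 1.5 times the value reported and 24 moved. Members called for IL-4 in wild-type went from 5 to 2 at a fold above 2 and to 2 at an assumed coefficient of variation of 0.2 or 0.4. In TIF1a-KO cells they went from 5 to 3, to 2 and 2, and to 3 with the length trend removed. Pathway genes called for IL-4 went from 7 to 2, 0 and 0 in wild-type and from 7 to 2, 1 and 0 in TIF1a-KO cells. Genotype calls among members went from 2 to 1, 0 and 0 without IL-4 and from 3 to 1, 0 and 0 with IL-4. The difference of responses went from 2 to 1 with TMM, 0 at a fold above 2 and 0 with the trend removed. For the pairs, the share of all genes under these settings is given above only for an assumed coefficient of variation of 0.2. For the difference of responses it is not given. The other changes in these counts thus cannot be set against those of genes in general. Genotype calls in the additive fit went from 3 to 0 without a filter and 1 with DESeq2. Among 939 values of single genes, 20 changed sign, 73 lost a call and 9 gained one. With the trend removed, genotype ratios with IL-4 became -0.0331 for Slc7a1, 0.0297 for Oat, 0.0198 for Sat1 and 0.0316 for Azin2. IL-4 ratios in TIF1a-KO cells became -0.0043 for Odc1, 0.0085 for Azin1 and -0.0194 for Oaz1. Differences of responses became 0.0619 for Arg2, -0.0332 for Aldh18a1, 0.0049 for Azin2 and -0.0063 for Sms. With TMM, Oaz1 with IL-4 in wild-type became 0.0167, and the differences of Oat, Aldh18a1 and Slc3a2 became -0.0009, -0.0049 and -0.0114. In the additive genotype term, the length offset gave -0.0858 for Slc7a1, -0.0834 for Azin1 and 0.0008 for Oat, and upper-quartile scaling gave -0.0268 for Azin1 and -0.0077 for Sat1. The cause was not tested in any of these. Arg1 without IL-4 (30 and 88 reads), Arg2 (35 to 74), Ass1 in TIF1a-KO cells (93 and 87) and Azin2 (7 to 28) rest on few reads.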
